A study of Homo sapiens with 9 samples.

Results

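The genes for mitochondrial ribosomal proteins were examined in HCT116 cells, a human colorectal carcinoma line, by RNA sequencing of 9 libraries. They were taken as every gene of the deposited table whose symbol begins with MRPL or MRPS followed by a number and at most 1 letter, which gave 78 of 33861 genes and left out pseudogenes. Of the 78, 51 encode proteins of the large subunit and 26 proteins of the small subunit of the mitochondrial ribosome. The remaining gene, MRPS36, carries the name but encodes a component of the oxoglutarate dehydrogenase complex, and MRPS30 and MRPS18A encode large subunit proteins in spite of the letter S. The libraries formed 3 groups of 3. Control cells (NC) were given neither factor. In the activin-treated group activin was present at 100 ng/mL over 5 days. The activin + HGF-treated group had the same course of activin and then 20 ng/mL of hepatocyte growth factor (HGF), again over 5 days. All groups are the same established line, and the time that control cells spent in culture is not stated. No source used here says that the libraries of a group came from separate cultures, so p-values measure the spread between these libraries, which may be technical.

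Mitochondria keep their own ribosome, which translates the small set of membrane proteins encoded by mitochondrial DNA. Its RNAs come from the mitochondrial genome, whereas its proteins are all encoded in the nucleus, made in the cytosol and imported. Because every product of this ribosome is a subunit of the respiratory chain or of ATP synthase, the supply of mitochondrial ribosomes is tied to oxidative phosphorylation, which epithelial cells of the colon and carcinoma lines derived from them use beside glycolysis. The promoters of these nuclear genes are known for binding sites of NRF1, of ETS family factors such as GABP, and of YY1.

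Depth was 57453977 to 77016167 counts per library. Libraries of the same group correlated at 0.940 to 0.970 over genes on a log scale (Pearson). Epithelial markers of the line were present, with EPCAM at 77.2 to 133 FPKM (fragments per kilobase of gene, scaled to library size) and KRT19 at 251 to 438 FPKM, whereas VIL1 did not exceed 0.03 FPKM. Of 6 markers of leukocytes, fibroblasts and endothelium, 5 stayed at or below 0.13 FPKM and COL1A1 lay between 2.22 and 5.8 FPKM. The summed FPKM of these 6 markers was 2.35 to 2.5 in control, 4.38 to 5.87 in activin-treated and 2.82 to 3.54 in activin + HGF-treated libraries, and its part in the results was not tested. RNA was taken from whole cultures, so a lower level in every cell and a very low level in some of the cells cannot be told apart.

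All 78 genes passed the filter on low counts, so no member is missing from the counts below. Levels between genes were compared by FPKM, which accounts for gene length. MRPL12, the protein of the ribosomal stalk, had the highest mean over the 9 libraries at 87.5 FPKM, followed by MRPL41 with 68.1 FPKM and MRPS34 with 53.9 FPKM. MRPL46, MRPL42 and MRPS11 were the lowest at 1.79, 2.23 and 2.94 FPKM. MRPL12 shares 68.2% of its exonic bases with AC139530.2, annotated on the same strand and counted at 15.3 reads on average against 6982 for MRPL12, so the assignment of its reads is uncertain. MRPL46 and MRPS11, both low, are neighbours on chromosome 15 that are transcribed away from each other (deposited coordinates chr15:88459477-88467389 on the minus strand and chr15:88467453-88478267 on the plus strand).

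The sum over the 78 genes was highest and least variable in control cells. In control libraries the summed FPKM was 1641, 1635 and 1615. In activin-treated libraries it was 1059, 1220.2 and 1082, and in activin + HGF-treated libraries 1058, 1262 and 1389. No treated library reached a control library, while the treated groups overlapped each other. On the scale of CPM (counts scaled to a common library size, with TMM factors), which is the scale of the tests and which corrects for differences in library composition, the sums were 3905 to 3938 in control, 2354 to 3051 in activin-treated and 3241 to 3724 in activin + HGF-treated libraries, and no groups overlapped. The scaling factor of activin + HGF replicate 1 was the lowest at 0.783, against 0.899 to 1.166 in all libraries but that one. The ratio of the summed FPKM of small to large subunit genes overlapped between the groups, at 0.457 ± 0.0275 in control, 0.472 ± 0.0355 in activin-treated and 0.477 ± 0.0186 in activin + HGF-treated cells (SD, n = 3).

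**Figure D1:**
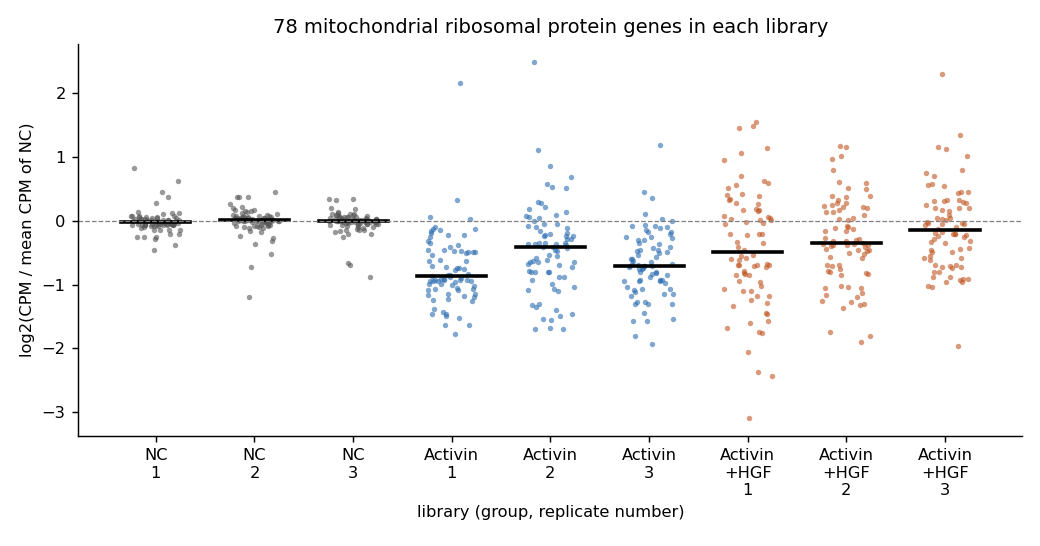
Each point is 1 of the 78 genes in 1 library, as the log2 ratio of its CPM to the mean of the control libraries, and the black line is the median of the library. The medians of the 3 activin-treated libraries lie at -0.87, -0.40 and -0.70 and those of the activin + HGF-treated libraries at -0.49, -0.35 and -0.15, the latter on the TMM scale only, since with library totals the activin + HGF group lies no higher than activin (median difference -0.07). The median of all genes with library totals was -0.38, and the 78 genes lay 0.31 above all genes on either scale.

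Library by library, 73, 61 and 71 of the 78 genes lay below the control mean in activin-treated cells. Activin replicate 2 stood apart from the other two, with a median log2 ratio to control of -0.40 against -0.87 and -0.70. After HGF, 50, 51 and 47 genes lay below the control mean, and the spread over genes was wide in every library. By group means, 53 of the 78 genes (67.9%) were lowest in activin-treated cells, against 25.8% of all genes tested.

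The comparison of activin-treated with control cells covers the first step of the treatment. Of the 78, 32 fell and 1 rose in edgeR's quasi-likelihood test at a Benjamini-Hochberg adjusted p under 0.05, that is 41.0% and 1.28%, against 8.41% lower and 9.58% higher among all 20988 genes tested. The 32 genes that fell did so by 0.61 to 1.45 on the log2 scale, and 15 of them at least 2-fold (19.2%, against 4.62% of all genes), as MRPS16 rose at least 2-fold (against 6.78% of all genes). Whatever their p, 67 of the 78 log2 fold changes were below 0, against 49.0% of all genes. In 53 genes every activin-treated library lay below every control library (67.9%, against 21.3% of all genes), which held for all 32 called ones. The median log2 fold change over the 78 genes was -0.63, or 64.5% of control, and that over all genes 0.02. MRPS16 was the gene that rose. Leaving out activin replicate 2 raised the number that fell to 42, and leaving out activin replicate 1 or control replicate 1, 2 or 3 lowered it to 19, 18, 18 and 19, with fewer libraries in each fit. The shares of all genes above are those of the fit with all 9 libraries.

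Both subunits held genes that fell. Of the 51 large subunit genes 22 fell and none rose, with a median log2 fold change of -0.62, and of the 26 small subunit genes 10 fell and 1 rose, with a median of -0.65. Proteins with a bacterial counterpart and those specific to mitochondria had 21 of 48 and 11 of 29 genes lower and medians of -0.61 and -0.65. Among all genes tested 8.41% fell and 9.58% rose with activin. No test was run between these classes. MRPS36, the gene outside the ribosome, had a log2 fold change of -0.29 and did not pass.

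MRPL32 (ENSG00000106591, deposited coordinates chr7:42932376-42948958, plus strand), a large subunit protein that the m-AAA protease of the inner membrane cuts before it joins the ribosome, fell the most. Its CPM was 50.6, 51.1 and 55.9 in control, 18.6, 21.3 and 17.6 in activin-treated and 29.3, 25.6 and 30.2 in activin + HGF-treated libraries. The 3 groups did not overlap. The log2 fold change with activin was -1.45 (SE 0.164, edgeR adjusted p = 0.000343), and with any of the 9 libraries left out it stayed between -1.54 and -1.35 and past the threshold. An exact permutation test of 3 against 3 libraries gave p = 0.1 for each comparison of MRPL32, which is the smallest this design allows.

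The next largest decreases were those of MRPS27, a small subunit protein specific to mitochondria, and of MRPL16, the counterpart of bacterial L16. MRPS27 had 119, 96.1 and 156 CPM in control, 62.6, 44 and 32.5 in activin-treated and 64.3, 86.2 and 88.5 in activin + HGF-treated libraries. MRPL16 had 60.4, 63.5 and 55.1 CPM in control, 19.3, 28.3 and 20.2 in activin-treated and 20, 27.2 and 32.4 in activin + HGF-treated libraries. For both genes each treated library lay below each control library. The log2 fold changes with activin were -1.42 (SE 0.27, edgeR adjusted p = 0.00558) for MRPS27 and -1.4 (SE 0.225, edgeR adjusted p = 0.00228) for MRPL16.

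MRPS34 and MRPL46 followed with log2 fold changes of -1.39 and -1.34. MRPL46, a large subunit protein specific to mitochondria, had 21.5, 22.1 and 20.9 CPM in control against 8.21, 8.4 and 8.86 in activin-treated libraries. MRPS22 (log2 fold change -1.25, SE 0.192) and MRPS15 (-1.09, SE 0.175), both of the small subunit, had with MRPL32 the smallest p-values, with edgeR adjusted p = 0.0018 and 0.00227. The other genes that fell at least 2-fold were MRPL39 (-1.28), MRPL1 (-1.23), MRPL12 (-1.23), MRPL23 (-1.12), MRPL50 (-1.12), MRPS7 (-1.09), MRPL35 (-1.06) and MRPL36 (-1.06). MRPS11, the divergent neighbour of MRPL46, had a log2 fold change of -0.43 (SE 0.25) and did not pass (edgeR adjusted p = 0.285). The difference between these neighbours was not tested.

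The called genes with the smallest decreases were MRPL47 (-0.61), MRPS21 (-0.65), MRPS23 (-0.65), MRPS30 (-0.68) and MRPS6 (-0.72). Of the 33 calls, 16 kept their side of the threshold with each of the 9 libraries left out in turn, among them MRPL32, MRPS27, MRPL16, MRPS34, MRPL46, MRPS22 and MRPS15. The median over the 78 genes, measured against the median of all genes, lay between -0.67 and -0.56 over all scalings, filters and tools tried.

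MRPS16 (ENSG00000182180, deposited coordinates chr10:73248843-73252644, minus strand), the counterpart of bacterial S16, went the other way. It had 18.2, 19.7 and 21.3 CPM in control, 88.1, 111 and 45 in activin-treated and 24.9, 34.1 and 97.2 in activin + HGF-treated libraries. All treated libraries lay above all control libraries, but they ranged widely. The log2 fold change was 2.04 with activin (SE 0.484, edgeR adjusted p = 0.0157) and 1.4 after activin and HGF (SE 0.475, edgeR adjusted p = 0.0458). The first call was lost without control replicate 1, 2 or 3 or activin replicate 2 (log2 fold changes of 1.75 to 2.37 over all libraries left out, adjusted p up to 0.0587). The second was lost without those libraries, activin replicate 1 or activin + HGF replicate 3, and its log2 fold change fell as low as 0.58. MRPS16 shares 14.1% of its exonic bases with DNAJC9-AS1 on the opposite strand, which was counted at 44.2 reads on average against 3432 for MRPS16.

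**Figure D2:**
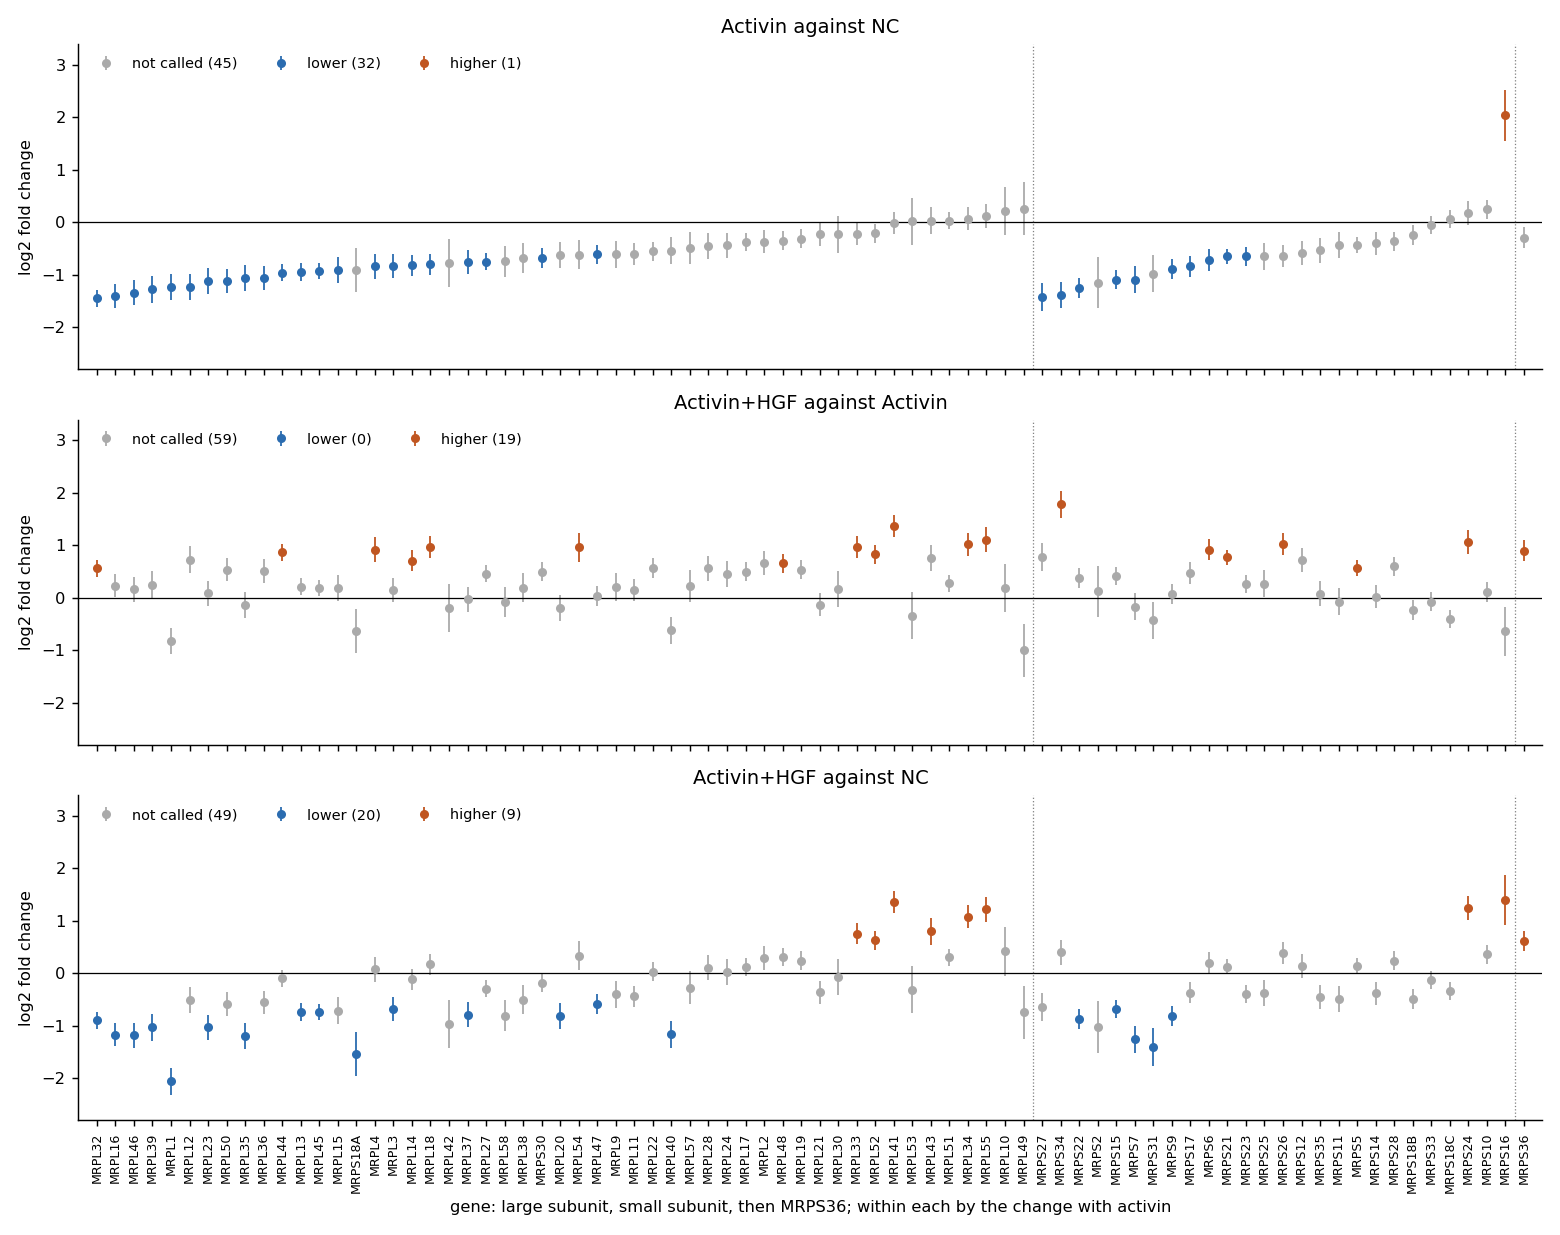
Log2 fold changes of all 78 genes in the 3 comparisons, in the same order in each panel (large subunit, small subunit and MRPS36, separated by dotted lines), with bars for the SE and colour for the call at an edgeR adjusted p under 0.05. With activin 32 genes were lower and MRPS16 higher, 19 were higher in activin + HGF-treated than in activin-treated cells on the TMM scale and 7 with library totals, and against control 20 genes were lower and 9 higher. With library totals the median of all genes between activin + HGF-treated and activin-treated cells was -0.38.

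The comparison of activin + HGF-treated with activin-treated cells follows the second step of the treatment. It does not isolate HGF, because these groups also differ by 5 days of culture, no group had activin followed by the same time without HGF, and the sources used here do not say whether activin stayed in the medium. The parts of HGF, of time and of a possible end of activin cannot be told apart, and "with HGF" or "after HGF" names this comparison only. Of the 78 genes, 19 rose (24.4%, against 7.41% of all genes) and 0 fell (against 5.45%) in edgeR's quasi-likelihood test at a Benjamini-Hochberg adjusted p under 0.05. Of the 19, 6 rose at least 2-fold (7.69%, against 3.87% higher and 4.21% lower among all genes). At an unadjusted p under 0.05, 3 genes were lower (against 14.4% of all genes), DESeq2 called 1 lower, and limma on log2 FPKM called 3. The median log2 fold change was 0.27 on the TMM scale, against -0.04 for all genes, but it was -0.07 with library totals, where the median of all genes was -0.38, so that against all genes the 78 lay 0.31 higher in both. On log2(FPKM + 1) that difference shrank to 0.06. In 30 genes every activin + HGF-treated library lay above every activin-treated one (38.5%, against 17.2% of all genes), and in 2 below (2.56%, against 15.6%).

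The number of genes called higher after HGF depended on the libraries and on the fit. It was 2 without activin replicate 1, 7 without activin replicate 3, 12 without control replicate 1 and 30 without activin replicate 2. It was 3 when only these 2 groups entered the fit and 7 with library totals. The 7.41% of all genes given above is that of the main fit, and the share of all genes in these fits is not given.

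MRPS34 (ENSG00000074071, deposited coordinates chr16:1771890-1773150, minus strand), a mitochondria-specific protein of the small subunit, showed the largest increase after HGF. Its CPM was 65.4, 104 and 70.5 in control, 23.5, 38.9 and 29.4 in activin-treated and 124, 93.7 and 98.2 in activin + HGF-treated libraries. The activin-treated libraries lay below all others, while control and activin + HGF-treated libraries overlapped. With HGF the log2 fold change was 1.78 (SE 0.249, edgeR adjusted p = 0.00479), and against control it was 0.4 (SE 0.242, edgeR adjusted p = 0.241). Both its decrease and its increase passed with each library left out and under each of the 12 other settings.

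MRPL41 (ENSG00000182154, deposited coordinates chr9:137551879-137552555, plus strand), a large subunit protein specific to mitochondria, rose after HGF with no decrease before it. It had 27.1, 37.3 and 32.3 CPM in control, 27, 39.6 and 29.2 in activin-treated and 94.1, 71.8 and 82.3 in activin + HGF-treated libraries. Control and activin-treated libraries overlapped, and all activin + HGF-treated libraries lay above both. The log2 fold change was -0.01 (SE 0.205) with activin, 1.37 (SE 0.208, edgeR adjusted p = 0.00557) with HGF and 1.36 (SE 0.208, edgeR adjusted p = 0.00101) against control. MRPS34 and MRPL41 were the 2 of the 19 genes whose increase passed whichever library was left out.

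The same course was seen in MRPL55, the counterpart of bacterial L31, MRPS24, that of S3, and MRPL34, that of L34. MRPL55 had 8.72 to 13.5 CPM in control, 9.5 to 13.3 in activin-treated and 21 to 28.6 in activin + HGF-treated libraries. The corresponding ranges were 20.6 to 25.2, 19.4 to 33.6 and 45.7 to 63.3 CPM for MRPS24 and 35.1 to 43.2, 32.7 to 55.5 and 75.9 to 86.2 CPM for MRPL34. Their log2 fold changes with HGF were 1.11, 1.07 and 1.02, each with an edgeR adjusted p of 0.0169. MRPS24 shares 23.2% of its exonic bases with URGCP-MRPS24 on the same strand, counted at 17.2 reads on average. In MRPS26, the remaining gene that rose at least 2-fold (1.03), activin-treated libraries had 26.7, 47.6 and 33.1 CPM and activin + HGF-treated libraries 70.6, 79.5 and 69.7.

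The comparison with HGF shares the activin-treated libraries with the comparison before it, so the values of genes called in both are given side by side, without a count. They were -0.82 and 0.71 for MRPL14, -0.8 and 0.97 for MRPL18, -0.84 and 0.92 for MRPL4, -0.72 and 0.92 for MRPS6 and -1.45 and 0.56 for MRPL32, the first of each pair with activin and the second with HGF (log2 fold changes). MRPL32 was still lower than control after HGF (-0.89, SE 0.162, edgeR adjusted p = 0.00257), and the others were not called against control. MRPL44, which has the fold of a double-stranded RNA nuclease, had 57.6, 58.2 and 58.4 CPM in control, 25.7, 33.4 and 30.7 in activin-treated and 59.2, 54.3 and 50.1 in activin + HGF-treated libraries. Its activin-treated libraries lay below all others, and the other groups overlapped. Its log2 fold changes were -0.96 (SE 0.162, edgeR adjusted p = 0.00304) with activin and 0.87 (SE 0.162, edgeR adjusted p = 0.0108) with HGF, the latter lost without activin replicate 1 (adjusted p = 0.0608). MRPS21, a small subunit protein, had 75.5 to 81.3, 47.4 to 52.8 and 80.5 to 89.3 CPM in the 3 groups and a log2 fold change of 0.77 with HGF (edgeR adjusted p = 0.0105). The smallest called increases with HGF were those of MRPL32 (0.56), MRPS5 (0.57), MRPL48 (0.66) and MRPL14 (0.71), of which MRPL32, MRPL14 and MRPS5 passed in 1 and MRPL48 in 2 of the 9 fits with a library left out.

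**Figure D3:**
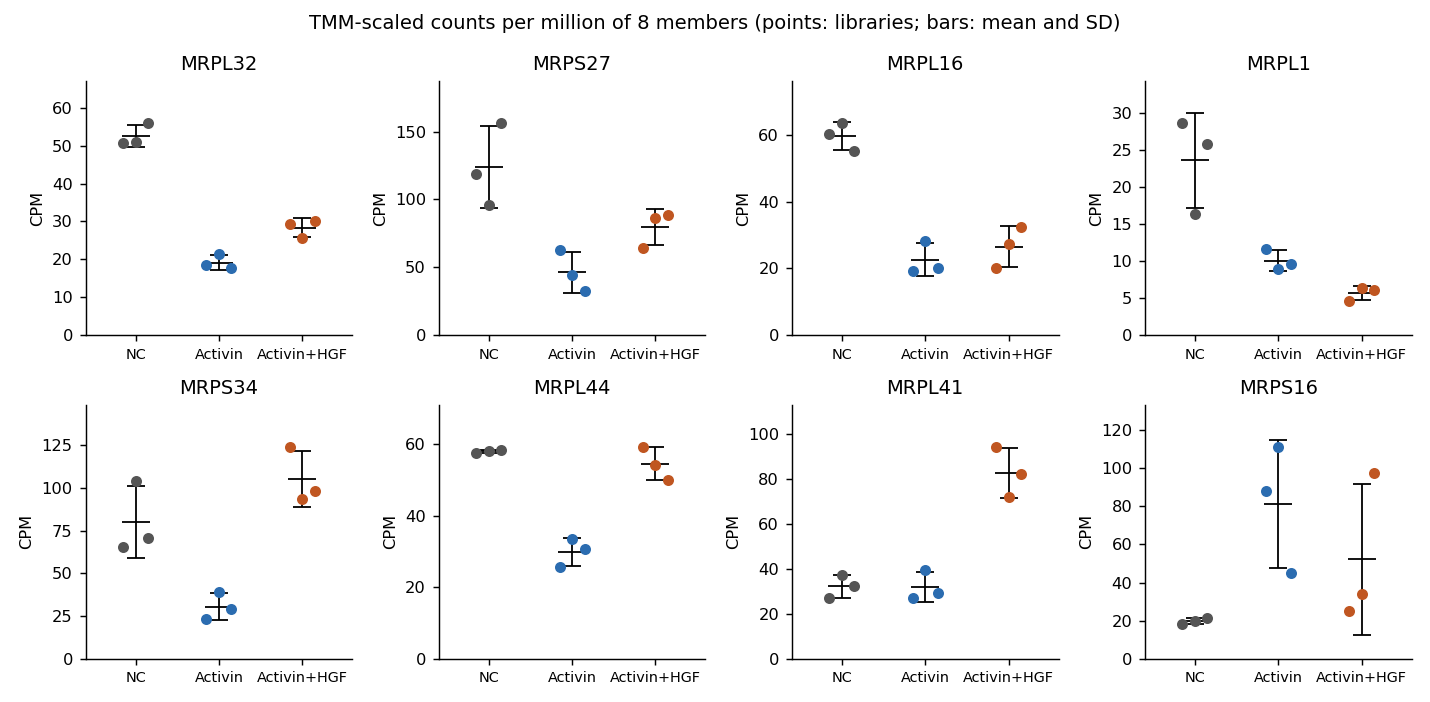
CPM of 8 genes in each of the 9 libraries (points), with the mean and SD of each group of 3, and each vertical axis starting at 0. MRPL32, MRPS27 and MRPL16 are lower in all treated libraries, MRPL1 is lowest after HGF, MRPS34 and MRPL44 are lowest with activin and overlap control after HGF, MRPL41 is higher in activin + HGF-treated than in all other libraries, and MRPS16 is higher in all treated libraries with a wide spread.

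The comparison of activin + HGF-treated with control cells gives the outcome of the whole sequence. Of the 78 genes 20 were lower (25.6%, against 15.0% of all genes) and 9 higher (11.5%, against 16.4%) in edgeR's quasi-likelihood test, 10 and 5 of them at least 2-fold (against 10.2% and 11.3%). The median log2 fold change was -0.36, or 77.8% of control, against -0.03 for all genes. It was -0.62 with library totals, -0.66 and -0.58 with limma on log2(FPKM + 0.1) and log2(FPKM + 1), and -0.17 with length and GC offsets. The medians of all genes in these fits were -0.3, -0.26, -0.09 and 0.04 in the same order. Measured against all genes, the 78 lay at -0.33 in the main fit and at -0.32, -0.4, -0.48 and -0.21 in these. On the TMM scale 29 log2 fold changes were above 0 (against 48.6% of all genes). With library totals, where the median of all genes was -0.3, 33 genes were lower and 4 higher. The number of higher genes was 4 without control replicate 1, 2 or 3. The shares of all genes given above are those of the main fit, and those of the other fits are not given.

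MRPL1 (ENSG00000169288, deposited coordinates chr4:77862830-77952785, plus strand), the protein of the L1 stalk, was the lowest relative to control. It had 28.6, 16.4 and 25.8 CPM in control, 11.6, 8.98 and 9.61 in activin-treated and 4.59, 6.3 and 6.08 in activin + HGF-treated libraries. The groups did not overlap. The log2 fold change against control was -2.06 (SE 0.257, edgeR adjusted p = 0.000335), or 24% of control, and that with HGF was -0.83 (SE 0.25, edgeR adjusted p = 0.0533).

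MRPS18A, MRPS31, MRPS7 and MRPL35 followed at log2 fold changes of -1.54, -1.4, -1.26 and -1.2 against control. Among the listed pseudogenes of MRPS31, MRPS31P5 and MRPS31P4 had counts of 20.6% and 11.9% of its own, so reads may have been split between them. The other genes lower by at least 2-fold were MRPL46 (-1.18), MRPL16 (-1.17), MRPL40 (-1.16), MRPL23 (-1.03) and MRPL39 (-1.03). The smallest called decreases were MRPL47 (-0.58), MRPL3 (-0.68), MRPS15 (-0.68), MRPL13 (-0.74) and MRPL45 (-0.74), a protein that anchors the ribosome to the inner membrane. The 9 higher genes were MRPS16 (1.4), MRPL41 (1.36), MRPS24 (1.24), MRPL55 (1.22), MRPL34 (1.08), MRPL43 (0.8), MRPL33 (0.76), MRPL52 (0.63) and MRPS36 (0.61). MRPL43 shares 32.8% of its exonic bases with SEMA4G on the opposite strand, counted at 1952 reads on average against 2585 for MRPL43. MRPL33 shares 21.05% with BABAM2 on the same strand, counted at 1191 reads against 1986. With a library left out, the calls of MRPL43 and MRPS36 passed in 2 of the 9 fits, MRPL52 in 5 and MRPL33 in 6. Those of MRPL41, MRPS24, MRPL55 and MRPL34 passed in all 9.

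The paralogues of bacterial S18, of which MRPS18A is in the large and MRPS18B and MRPS18C are in the small subunit, had different values. MRPS18A had 51.2, 56.4 and 52.9 CPM in control, 28.2, 35.1 and 22.2 in activin-treated and 6.28, 21.5 and 27.4 in activin + HGF-treated libraries. MRPS18B had 90.4 to 100.2, 70.4 to 91.3 and 52.6 to 80.9 CPM in the 3 groups and MRPS18C 27.1 to 30.4, 27 to 33.6 and 20 to 25.7 CPM. MRPS18A was called against control (edgeR adjusted p = 0.0194), and MRPS18B and MRPS18C were not in any comparison. Differences between the paralogues were not tested. MRPS18A shares 47.0% of its exonic bases with RSPH9 on the opposite strand, counted at 19.1 reads on average against 2300.2, and MRPS18C shares 40.2% with ABRAXAS1, counted at 1010 reads against 1856.

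In 29 genes no comparison passed the threshold. Some of them varied widely within a group. In the activin + HGF-treated group 10 genes had a highest library over 2 times the lowest, with replicate 1 the lowest in 9 of them. There were 7 such genes with activin and 4 in control, and the median of this ratio over the 78 genes was 1.35, 1.48 and 1.1 in the 3 groups. MRPL49 had 119, 40.6 and 41.8 CPM in control and 68.2, 19.3 and 33.3 in activin + HGF-treated libraries, MRPS2 had 19.2, 24 and 75.2 CPM in the latter, and MRPL42 had 21.8, 18.6 and 64.2 CPM with activin. These genes, chosen after their values were seen, had SEs of the log2 fold change with activin of 0.505 (MRPL49), 0.492 (MRPS2) and 0.457 (MRPL42), against 0.164 for MRPL32. Uncalled genes with narrow groups were MRPL51, with 70.5 to 95.6 CPM with activin against 75.2 to 80.7 in control, and MRPS33, with 23.8 to 30.7 against 26.6 to 29.2 CPM, also chosen after their values were seen. MRPL51 shares 31.3% of its exonic bases with NCAPD2 on the opposite strand, counted at 9144 reads on average against 5737 for MRPL51.

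The promoters of the genes were compared by sequence, from RefSeq on GRCh38.p14, over 250 bases before and 50 bases after the annotated start. A promoter was found for 69 of the 78 genes. Searched on both strands and in any window of a gene, the ETS motif CCGGAAG was present in 43.5% of the 69 genes against 12.2% of the 27305 genes with a promoter, the NRF1 motif GCGCANGCG in 20.3% against 9.02%, the YY1 motif ATGGCGGC in 27.5% against 3.67% and the E-box CACGTG in 13.0% against 8.77%. The 27305 include genes that were not tested here. Among the other genes tested and not called with activin the shares were 19.9% (ETS), 15.1% (NRF1), 6.3% (YY1) and 11.6% (E-box). Among those that fell with activin they were 26.2%, 19.0%, 9.82% and 16.7%. The CCAAT box, searched as CCAAT, was no more common in the 69 genes than elsewhere, at 33.3% against 39.7%. Within the set, 17 of the 28 genes that fell with activin held it (60.7%), against 6 of the 40 that were not called (15.0%). Among the other genes tested it was in 44.6% of those that fell with activin and in 42.1% of those not called. The ETS motif was in 9 of the 28 (32.1%) and in 20 of the 40 (50%), and the shares were 21.4% and 20.0% for NRF1, 28.6% and 27.5% for YY1 and 14.3% and 12.5% for the E-box. Of the 18 genes with a promoter that rose with HGF, 7 held the CCAAT box (38.9%) and 1 the YY1 motif (5.56%). These shares, looked at after the calls were known, are descriptions without a test, and a match is not a bound site.

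MRPL32 and MRPS27 fell the most with activin, and MRPL41 and MRPS34 rose the most with HGF. MRPL4 was among the genes called lower with activin and higher with HGF. For these genes the 150 bases before the start are shown. They lie before the start that RefSeq gives, at chr7:42932226-42932375 (MRPL32, plus strand), chr5:72320241-72320390 (MRPS27, minus strand), chr19:10251801-10251950 (MRPL4, plus strand), chr9:137551729-137551878 (MRPL41, plus strand) and chr16:1773135-1773284 (MRPS34, minus strand). The RefSeq start is not always the deposited one: the MRPS27 stretch lies inside the deposited gene, and those of MRPL4 and MRPS34 run past the deposited start. Each is written 5′ to 3′ on the strand of its gene, and capitals mark the CCAAT box and the ETS motif on either strand.
MRPL32: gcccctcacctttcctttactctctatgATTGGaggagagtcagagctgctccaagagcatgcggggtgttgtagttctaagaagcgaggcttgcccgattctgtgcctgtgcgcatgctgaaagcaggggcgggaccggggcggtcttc
MRPS27: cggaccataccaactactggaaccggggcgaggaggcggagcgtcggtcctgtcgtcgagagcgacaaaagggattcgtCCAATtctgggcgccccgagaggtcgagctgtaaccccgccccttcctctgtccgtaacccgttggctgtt
MRPL4: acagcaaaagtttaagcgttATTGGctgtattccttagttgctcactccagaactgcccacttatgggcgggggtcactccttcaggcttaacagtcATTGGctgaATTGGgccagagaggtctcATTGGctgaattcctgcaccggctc
MRPL41: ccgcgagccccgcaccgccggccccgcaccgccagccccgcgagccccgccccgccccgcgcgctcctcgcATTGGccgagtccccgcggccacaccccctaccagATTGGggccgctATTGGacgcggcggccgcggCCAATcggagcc
MRPS34: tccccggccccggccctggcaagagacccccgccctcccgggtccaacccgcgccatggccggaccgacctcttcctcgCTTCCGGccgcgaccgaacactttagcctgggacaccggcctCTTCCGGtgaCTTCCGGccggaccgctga

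MRPL4 and MRPL41 each held 4 CCAAT boxes, at 130, 53, 44 and 25 bases before the start in MRPL4 and at 79, 44, 32 and 12 bases in MRPL41. MRPL4 fell with activin (log2 fold change -0.84, SE 0.242, edgeR adjusted p = 0.037), and MRPL41 had the value of -0.01 given above. The decrease of MRPL4 was called in 3 of the 9 fits with a library left out (edgeR adjusted p up to 0.167). Its increase with HGF was also called in 3 of the 9 (edgeR adjusted p up to 0.145). MRPL32 and MRPS27 held 1 each, at 122 and 71 bases. MRPS34 held no CCAAT box and 3 ETS motifs, at 71, 29 and 19 bases.

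Some proteins of the mitochondrial ribosome do not carry an MRP symbol. Of 5 such genes tested, AURKAIP1 (-0.95, edgeR adjusted p = 0.0117) and GADD45GIP1 (-0.84, adjusted p = 0.045) fell with activin and rose with HGF (0.81, edgeR adjusted p = 0.0334, and 0.87, adjusted p = 0.0492). Among all genes 8.41% fell with activin and 7.41% rose with HGF, and both comparisons share the activin-treated libraries. PTCD3, a small subunit protein that binds RNA, had 106, 90.9 and 99.7 CPM in control, 65.7, 34.8 and 76.1 with activin and 43.8, 49.8 and 51.2 after HGF, and was lower than control after HGF (-1.03, edgeR adjusted p = 0.0118). DAP3, the GTP-binding protein of the small subunit, did not pass in any comparison, with log2 fold changes of 0.04, 0.29 and 0.33. Its libraries ranged from 77 to 121 CPM.

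Beside the ribosome stand its translation and assembly factors. Of 16 translation factors 4 fell with activin and none rose (against 8.41% and 9.58% of all genes), with a median log2 fold change of -0.57. Of the called ones LRPPRC (-0.98), SLIRP (-0.93) and OXA1L (-0.83), which stabilise mitochondrial mRNAs or insert their products into the membrane, changed the most, and TSFM had -0.98 without a call (edgeR adjusted p = 0.0597). With HGF 1 of the 16 was higher and 1 lower (against 7.41% and 5.45% of all genes), with a median of -0.11 on the TMM scale. After HGF the median of the 16 was -0.58 against control, with 6 lower (against 15.0% of all genes), among them GUF1 (-1.1), an elongation factor that had 33.5 to 36.5 CPM in control and 11, 20.1 and 18.3 CPM after HGF. TUFM, the elongation factor, had 395, 448 and 390.1 CPM in control, 240, 368 and 209 with activin and 444, 425 and 441 after HGF, without a call (edgeR adjusted p = 0.073, 0.0547 and 0.781). Of 25 assembly factors 6 fell with activin (against 8.41% of all genes), led by the pseudouridine synthase RPUSD4 (-1.74, edgeR adjusted p = 0.000414) and TRUB2 (-1.27), and 10 were lower and 1 higher (NGRN, 1.33) than control after HGF (against 15.0% and 16.4% of all genes). With HGF 2 of the 25 were higher and 1 lower (against 7.41% and 5.45% of all genes), with a median of 0.08 on the TMM scale.

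Genes for mitochondrial transcription and for the regulation of biogenesis were looked at gene by gene. TFAM, which packages mitochondrial DNA and activates its transcription, fell with activin (-0.79, edgeR adjusted p = 0.0229), as did TFB2M (-0.93), and POLRMT (0.92, edgeR adjusted p = 0.0195) and TFB2M (0.79, adjusted p = 0.0431) rose with HGF. After HGF, TEFM (-1.48, edgeR adjusted p = 0.00497) and MTERF1 (-2.39, adjusted p = 0.0438) were lower and POLRMT (1.05, adjusted p = 0.00374) higher than control. Among 9 regulators of biogenesis, of which 8 were tested, ESRRA rose with activin (0.8, edgeR adjusted p = 0.0177) and was 1.39 higher than control after HGF. NRF1 had 17.5 to 31.4 CPM over the 9 libraries and no call. PPARGC1A was at 0 CPM in 7 libraries and reached at most 0.116. MYC had 20.1 to 26.2 CPM in control, 11.1, 156 and 96.5 with activin and 30.7, 16.1 and 151 after HGF, so its treated libraries lay on both sides of control and no comparison passed (edgeR adjusted p = 0.167, 0.793 and 0.212).

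The ribosomal RNAs that these proteins bind are mitochondrially encoded. The libraries had been depleted of ribosomal RNA, and the part of that step in the levels of these RNAs was not tested. MT-RNR1 had 3136 to 3448 CPM in control, 981 to 1291 with activin and 8857, 3478 and 2959.8 after HGF, with a log2 fold change of -1.52 with activin (edgeR adjusted p = 0.0142) and 2.17 with HGF (adjusted p = 0.00709). MT-RNR2 had 12529 to 14099, 13631 to 17355 and 30574 to 57308 CPM. Activin + HGF replicate 1 was the highest library for both. Of 13 mitochondrially encoded mRNAs 4 fell and 1 rose with activin (against 8.41% and 9.58% of all genes). With HGF 1 fell and 0 rose (against 5.45% and 7.41%). Against control after HGF 5 were lower and 3 higher (against 15.0% and 16.4%). The share of all counts that these mRNAs had with the rest of the mitochondrial genome was 18 to 20.1% in control and 15.1 to 17.2% in treated libraries.

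Cytosolic ribosomal proteins, the counterparts that act outside mitochondria, were compared as a list. Of 77 genes, 5 fell with activin (median -0.09, against 8.41% of all genes lower), 57 rose with HGF (median 0.92, against 7.41% of all genes) and 52 were higher than control after HGF (median 0.82, against 16.4%). Of the nuclear genes for subunits of oxidative phosphorylation, 28 of 78 were lower with activin (against 8.41% of all genes, median -0.47, led by ATP5ME at -1.96, NDUFB10 at -1.87 and ATP5MF at -1.71), and 32 were higher with HGF (median 0.62, against 7.41%). Against control after HGF 12 were higher and 10 lower (median 0.09), where 16.4% and 15.0% of all genes were called. The difference between these lists was not tested. The medians with HGF are on the TMM scale, on which the median of all genes was -0.04 against -0.38 with library totals.

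**Figure D4:**
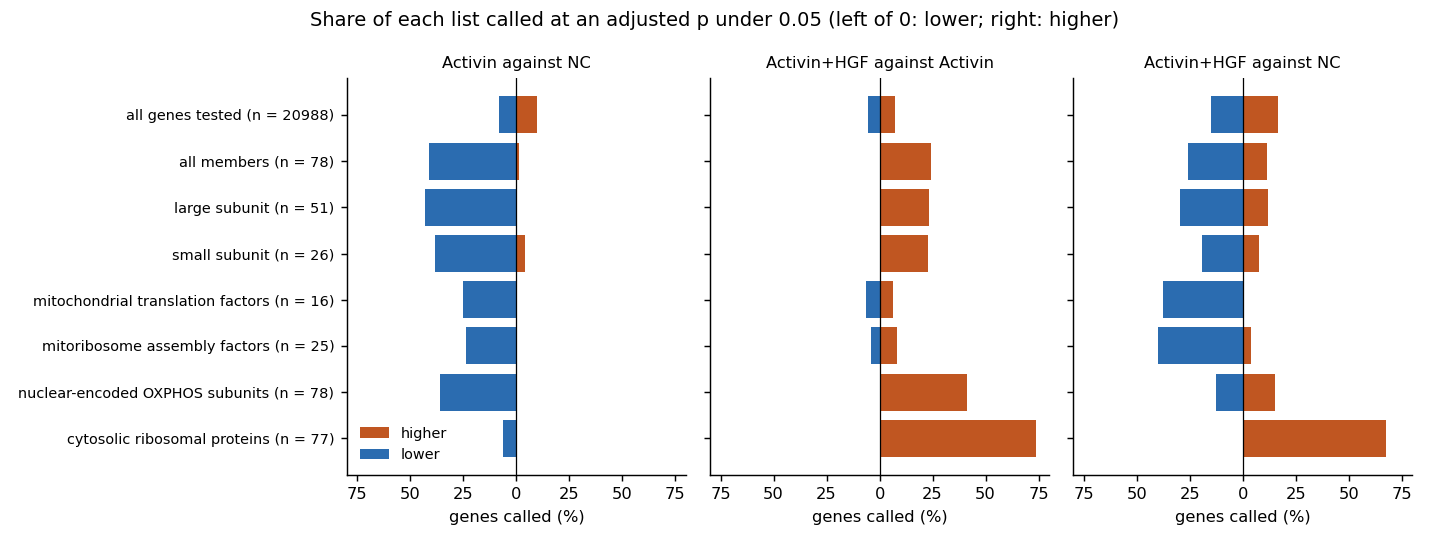
Percent of each list called lower (left of 0) or higher (right of 0) at an edgeR adjusted p under 0.05 in the 3 comparisons, with all 20988 genes tested in the top row. With activin, 41.0% of the 78 mitochondrial ribosomal protein genes were lower, and with HGF 24.4% were higher on the TMM scale, where 7 genes would be with library totals. With library totals the median of all genes with HGF was -0.38, and the share of all genes called is not given.

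Gene length and base composition were examined because they can shift counts between libraries. Over the 78 genes the Spearman correlation of the log2 fold change was 0.07 with length and 0.09 with GC content for activin, -0.2 and 0.18 for HGF, and -0.09 and 0.18 against control, given as descriptions over genes that share libraries. Over the 20639 tested genes with a known length, the correlation with GC content was 0.19 for activin, 0.08 for HGF and 0.2 against control. Their correlation with length was -0.0, -0.14 and -0.09 in the same order. With offsets for length and GC content, which were added after seeing the data, 32 genes were higher with HGF and the median against control was -0.17. The median of all genes in that fit was 0.09 with HGF and 0.04 against control.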

How the data were processed

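RNA of 9 HCT116 libraries, depleted of ribosomal RNA, had been sequenced, with 3 libraries in each of the control, activin and activin + HGF groups, as the labels give them. The deposited table holds, for each gene and library, the count of reads and the FPKM, both made by the authors. The submitters' processing notes name cutadapt 1.9, HISAT2 2.0.4 and StringTie 1.3.4d. The genome build is not given in the sources used here, but the deposited coordinates of 73 of the 78 genes overlapped those of GENCODE on GRCh38 over most of their length, and counting settings for strand are not given either. Of counts from 1 to 40, 35.0% were multiples of 4, and counts divided by 4 were therefore among the alternatives.

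Counts were tested with edgeR 4.0.16 (R 4.3.3), with its filterByExpr filter, TMM scaling and the quasi-likelihood test, in 1 fit over all 9 libraries. P-values were adjusted by Benjamini-Hochberg over the 20988 genes tested, and genes with an adjusted p under 0.05 were called. CPM values use the TMM-scaled library sizes. The fit was also run on simulated counts with known changes in some genes of the activin group. The outcome is not given here, and that run does not bear on the differences between scalings. FPKM as deposited served for levels between genes and for an alternative with limma 3.58.1 on log2(FPKM + 0.1) and log2(FPKM + 1). DESeq2 1.42.0, other scalings and filters, fits of 2 groups, each library left out, and a fit with the replicate number as a block were further alternatives. The sources used here do not say whether equal replicate numbers pair libraries, and the main fit had no pairing. The deviations of same-numbered libraries correlated at -0.0606 to 0.0882, which cannot settle how the libraries were made.

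The genes and lists were chosen with earlier results of these data known. Genes named in each comparison were the 5 with the largest and the 5 with the smallest change among those called, the 3 with the smallest p, and those changed at least 2-fold, with the paralogues of S18, the 3 highest and 3 lowest by FPKM, genes called in opposite directions with activin and with HGF, up to 3 called genes of each list and a few regulators. Promoters and their motifs were read from RefSeq on GRCh38.p14.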

Additional observations from a re-analysis of the deposited data

How the results depend on the processing

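With library totals and with limma on log2(FPKM + 0.1) and log2(FPKM + 1), the median with HGF turned to -0.07 in each case. The medians against control after HGF were then -0.62, -0.66 and -0.58, and -0.17 with length and GC offsets (chosen after seeing the data). Those of all genes were -0.3, -0.26 and -0.09, and 0.04 with the offsets. In the same order, genes higher with HGF numbered 7, 10 and 11, genes lower with HGF 2, 3 and 3, genes higher than control after HGF 4 each, and genes lower 33, 42 and 42. Genes higher with HGF numbered 32 with length and GC offsets and 3 when only 2 groups were fitted. With those offsets, and with DESeq2, its size factors, upper-quartile scaling, a filter at 1 CPM or counts divided by 4, 1 gene was lower with HGF, and with the offsets 2 were higher with activin. At an adjusted p under 0.01, 17 genes were lower and 0 higher with activin, 2 higher with HGF, and 12 lower and 4 higher than control after HGF. At an adjusted p under 0.05 with a 2-fold minimum, 15 genes were lower and 1 higher with activin, 6 higher with HGF, and 10 lower and 5 higher than control after HGF. Summed CPM after HGF was 86.9% of control, against 75.8% for summed FPKM. The cause of these shifts was not tested. For fits other than the main one, the share of all genes called is not given.

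With 1 library left out, genes lower with activin numbered 18 to 42 (18, 18 and 19 without control replicate 1, 2 or 3, and 19 without activin replicate 1), and genes higher 0 to 1. Genes higher with HGF numbered 2 to 30 (2, 30 and 7 without activin replicate 1, 2 or 3, and 12 without control replicate 1), and genes lower 0 to 1. Against control after HGF 4 to 10 were higher (4 without control replicate 1, 2 or 3) and 15 to 25 lower. The medians were -0.79 to -0.49 with activin, 0.18 to 0.42 with HGF and -0.41 to -0.27 against control. The share of all genes called with a library left out is not given. With the replicate block, 31 genes were lower and 1 higher with activin, 16 higher with HGF, and 20 lower and 8 higher than control after HGF. No source used here says that equal replicate numbers mark paired libraries, so the block is given as an alternative only.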
